A study of Mus musculus with 6 samples.

Results

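The genes described here are *Nfkb1*, *Nfkb2*, *Rela* and *Relb*, which encode subunits of the transcription factor NF-κB, and *Nfkbia*, *Nfkbie*, *Nfkbiz*, *Tnfaip3*, *Tnip1* and *Birc3*, which encode proteins that act back on the pathway and are mostly among its inhibitors. They were chosen by gene symbol for their place in the pathway, with earlier results of these data known. They are 10 of the 56748 genes in the count table, and each symbol had 1 row. All 10 were among the 13107 genes left for testing after a filter on low counts, and 7 had at least 10 counts in every library. The other 3 (*Nfkb2*, *Relb* and *Nfkbie*) had 0 counts in 1 control library and passed through the remaining 5.

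RNA-Seq was performed on endothelial cells (ECs) sorted from the spinal cord of mice at P16, in 3 control and 3 TDP-43iΔEC libraries (marked KO in the plots). The paper's methods do not state whether each library came from 1 mouse. Control mice carried the floxed *Tardbp* allele (genotype Tardbpflox) without Cre recombinase. TDP-43iΔEC mice carried the same allele together with Cdh5(PAC)-CreERT2, a tamoxifen-inducible Cre expressed from the promoter of *Cdh5*, the VE-cadherin gene of ECs. Mice of both groups received tamoxifen (1 mg/mL) at P5 to P7, so the controls shared the floxed allele and the drug but had no Cre, and an effect of Cre itself cannot be told apart from that of the deletion.

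In resting cells, NF-κB dimers are held in the cytoplasm by inhibitor proteins of the IκB family. Cytokine or toll-like receptor signals cause IκBα (*Nfkbia*) to be degraded, p50 (cut from the *Nfkb1* product) and p65 (*Rela*) enter the nucleus, and this canonical arm switches on genes that include *Nfkbia* and *Tnfaip3* themselves, which then shut the signal off. In a slower alternative arm, p52 is cut from the *Nfkb2* product and pairs with RelB. In ECs the pathway is best known for switching on adhesion molecules and chemokines that attract leukocytes.

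The libraries held 25704871 to 47270654 counts, and 12972 to 16557 genes were detected per library. *Tardbp*, the deleted gene, stood at 1973, 2282 and 2069 normalized counts in the control libraries and at 982, 599.9 and 433 in the TDP-43iΔEC libraries (counts over the whole gene, divided by size factors), with no overlap. Its log2 fold change was -1.62 (SE 0.41), with an adjusted p of 0.287 by limma and of 0.00188 by DESeq2. Markers of ECs summed to between 9548 and 13369 CPM (counts scaled to library size) in controls and between 9544 and 12250 CPM in TDP-43iΔEC, and all 8 were detected. Of these, *Flt1* and *Kdr*, both receptor genes for vascular endothelial growth factor, were lower in every TDP-43iΔEC library than in every control (log2 fold change -0.69, limma adjusted p = 0.0635, and -0.26, adjusted p = 0.575). Control 2 and KO 1 stood apart from the rest. On the first axis of a multidimensional scaling plot (30.3% of the variation) control 2 lay alone, and on the second (24.8%) KO 1 lay alone. Control 2 had 0 counts for 2094 of the tested genes (16.0%), against 1.88% to 9.03% in the other libraries. It held the lowest control value for 8 of the 10 genes described here, and for 44.3% of all tested genes. Values without it are given where leaving it out moved a printed log2 fold change by over 1.5 times.

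The promoters of the genes are shown first, because the pathway is wired through them. RefSeq promoter windows (250 bases before to 50 bases after a transcription start; table of build GRCm38.p6) were found for 7 of the 10 genes, and none was found for *Nfkb1*, *Relb* and *Nfkbiz*. Each window was placed in GRCm39 by its exact and only match. The 10-base κB consensus, the site that NF-κB dimers bind, was searched by letters on both strands and found in windows of 5 of the 7 genes, *Nfkbia*, *Nfkbie*, *Tnfaip3*, *Nfkb2* and *Tnip1*. Of all 32851 windows in the table, 8.46% held it (9.55% of 27025 genes). It was not found in the windows of *Rela* and *Birc3*. *Tnfaip3* has a further window (chr10:18887662-18887961), not printed here, which held neither this consensus nor the AP-1 letters given next. The AP-1 letters TGANTCA occurred in 3 of the 7 genes (*Nfkb2*, *Nfkbie* and *Tnfaip3*), against 7.81% of all windows and 8.97% of genes; that of *Nfkb2* lies in a window not printed here. No κB match overlapped an AP-1 match in the windows printed. A match is a description of the letters and says nothing of binding in these cells. The 250 bases before the start are printed 5′ to 3′ on the strand of each gene, with κB matches in capitals, in the order *Nfkbia* (chr12:55539433-55539682, minus strand), *Nfkbie* (chr17:45866376-45866625, plus strand), *Tnfaip3* (chr10:18891159-18891408, minus strand), *Nfkb2* (the first of its 3 windows, chr19:46292926-46293175, plus strand) and *Tnip1* (chr11:54853767-54854016, minus strand).
Nfkbia: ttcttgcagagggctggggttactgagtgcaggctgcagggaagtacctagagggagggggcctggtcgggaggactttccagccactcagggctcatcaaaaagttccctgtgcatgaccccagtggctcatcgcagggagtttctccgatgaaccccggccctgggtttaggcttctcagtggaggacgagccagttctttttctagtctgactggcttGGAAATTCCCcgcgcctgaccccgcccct
Nfkbie: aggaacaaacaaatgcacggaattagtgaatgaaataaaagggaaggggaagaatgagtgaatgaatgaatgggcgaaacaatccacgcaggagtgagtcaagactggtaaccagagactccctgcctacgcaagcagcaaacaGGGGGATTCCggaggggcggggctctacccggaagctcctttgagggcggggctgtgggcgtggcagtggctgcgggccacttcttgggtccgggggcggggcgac
Tnfaip3: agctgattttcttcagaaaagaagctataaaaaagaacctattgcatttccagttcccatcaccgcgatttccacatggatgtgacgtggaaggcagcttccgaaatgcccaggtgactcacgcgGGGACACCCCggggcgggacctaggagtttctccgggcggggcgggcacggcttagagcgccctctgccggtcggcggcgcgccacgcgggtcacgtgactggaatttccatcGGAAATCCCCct
Nfkb2: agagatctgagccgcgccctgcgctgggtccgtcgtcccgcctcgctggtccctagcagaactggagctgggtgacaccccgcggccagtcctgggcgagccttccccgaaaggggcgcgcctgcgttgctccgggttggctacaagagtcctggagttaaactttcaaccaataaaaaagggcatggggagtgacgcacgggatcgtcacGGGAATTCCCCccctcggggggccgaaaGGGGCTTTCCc
Tnip1: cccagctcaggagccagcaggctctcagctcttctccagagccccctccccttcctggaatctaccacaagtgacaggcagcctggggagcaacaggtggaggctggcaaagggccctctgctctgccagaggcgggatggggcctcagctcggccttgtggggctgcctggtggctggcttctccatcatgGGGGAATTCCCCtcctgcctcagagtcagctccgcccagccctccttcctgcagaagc

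Counted from the start site, the match of *Nfkbia* spans bases -29 to -20, and that of *Nfkbie* spans -106 to -97. *Tnfaip3* has matches at -125 to -116 and at -12 to -3. *Nfkb2* has an overlapping pair at -39 to -29 and a further match at -11 to -2. In *Tnip1*, 3 overlapping matches lie between -58 and -47, so the run in capitals is longer than the consensus.

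Whether deletion of endothelial TDP-43 was accompanied by different mRNA levels of these genes was asked by comparing the 3 TDP-43iΔEC libraries with the 3 control libraries. For *Nfkb2*, *Relb*, *Nfkbie* and *Tnfaip3*, every TDP-43iΔEC library lay above every control library, with mean normalized counts 3.21 to 3.84 times those of controls. *Nfkb1*, *Rela*, *Nfkbia*, *Nfkbiz*, *Tnip1* and *Birc3* overlapped between the groups. None of the 10 passed the limma test at an adjusted p of 0.05 over all tested genes, where 18 of 13107 genes did (0.137%). At an unadjusted p of 0.05, *Tnfaip3* and *Nfkb2* were higher in TDP-43iΔEC, 2 of 10 genes against 4.26% of all tested genes. In either direction, 1215 of 13107 tested genes had such a p. When scaled by library size only or to EC markers, 5 of the 10 did, against 1295 and 1191 of 13107 genes. These scalings also moved the median log2 fold change of all tested genes to 0.18 and 0.22. Without KO 1, 1 of the 10 did, against 960 of 14210 genes.

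The groups did not overlap for 4 of 10 genes with TDP-43iΔEC higher, against 7.93% of all tested genes, and for 0 of 10 with TDP-43iΔEC lower. Without control 2 the count was 5, with *Rela* added (11.5% of all tested genes), and without KO 1 it was 4 (13.4%). The fitted log2 fold change was above 0 for 9 of 10 genes (49.3% of all tested genes). Its median was 0.73 by limma and 0.81 by edgeR, against -0.02 and 0.00 over all tested genes. EdgeR's quasi-likelihood test and DESeq2's Wald test also called 0 of the 10 at an adjusted p of 0.05, and each found only *Tnfaip3* at an unadjusted p of 0.05. In sorted bulk samples, fewer cells expressing a gene and less of its RNA per cell cannot be told apart.

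**Figure D1:**
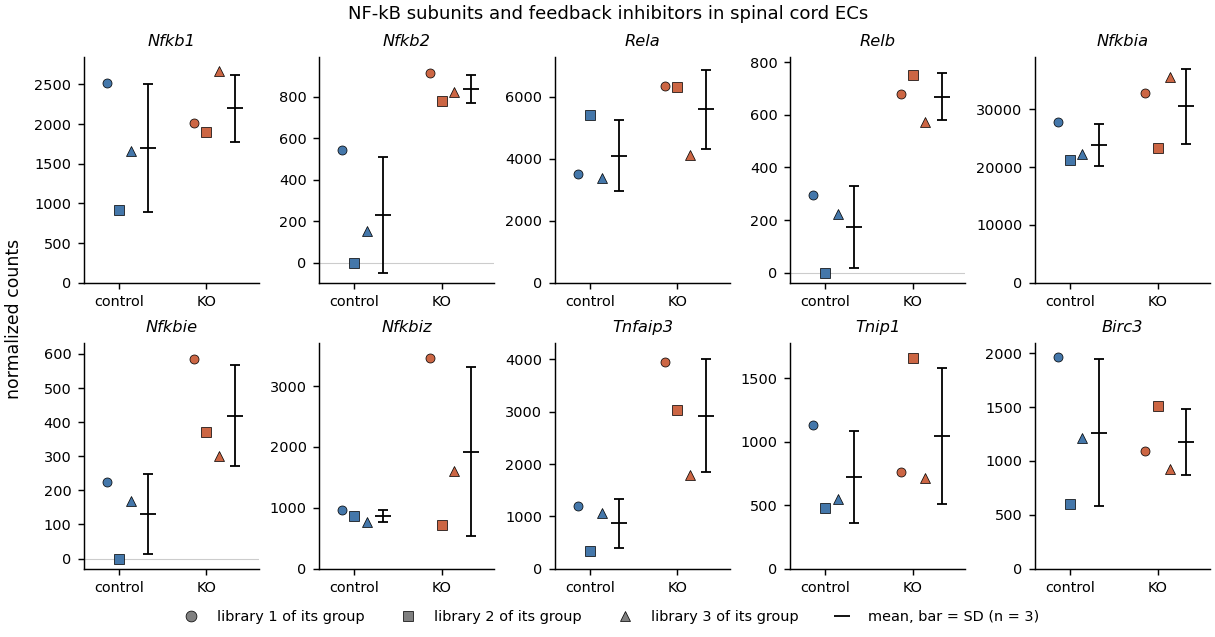
Normalized counts (deposited counts divided by DESeq2 size factors, vertical axes from 0) of the 10 genes in each library, with the mean and SD of 3 libraries per group. Each symbol is 1 library. For *Nfkb2*, *Relb*, *Nfkbie* and *Tnfaip3* all KO points lie above all control points, and control 2 (square) is at 0 for *Nfkb2*, *Relb* and *Nfkbie*.

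Among the subunit genes chosen here, the groups separated for *Nfkb2* and *Relb*, those of the alternative arm. *Nfkb2* (ENSMUSG00000025225.16, GRCm39 chr19:46292759-46303812, plus strand), whose product p100 is the precursor of p52, stood at 542, 0 and 154 normalized counts in controls 1 to 3 and at 914, 779 and 820 in the TDP-43iΔEC libraries. The 3 TDP-43iΔEC values lay close together and above the highest control. The means were 232 ± 279 and 838 ± 69.1 (SD, n = 3 each), a ratio of 3.61, or 2.40 without control 2. The fitted log2 fold change was 4.60 (SE 1.97, limma adjusted p = 0.528), 1.49 without control 2 and 1.80 by edgeR. The limma value is thus set largely by the 0 in control 2, where a count of 0 allows up to 0.0662 CPM. Exons of *Nfkb2* overlap antisense genes over 38.1% of their length. Since the counting is not stated to use strand, reads of *4833438C02Rik* (201 to 434 counts in controls, 269 to 347 in TDP-43iΔEC) may be shared with it.

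*Relb* (ENSMUSG00000002983.18, chr7:19339017-19363425, minus strand) encodes the partner of p52. Its normalized counts were 297, 0 and 225 in controls and 679, 751 and 573 in TDP-43iΔEC, so that the lowest TDP-43iΔEC library was above the highest control. The means were 174 ± 155 and 668 ± 89.5 (SD, n = 3 each), a ratio of 3.84, or 2.56 without control 2. The log2 fold change was 4.37 (SE 1.96, limma adjusted p = 0.543), 1.31 without control 2 and 1.89 by edgeR. No annotated gene overlaps the exons of *Relb*.

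*Nfkb1* and *Rela*, the chosen subunit genes of the canonical arm, overlapped between the groups. *Rel*, a further subunit gene outside the chosen set, did not overlap. *Rel* stood at 346, 40.1 and 373 normalized counts in controls and at 1026, 427 and 1114 in TDP-43iΔEC. Separation among subunit genes was thus not confined to *Nfkb2* and *Relb*. *Nfkb1* (ENSMUSG00000028163.18, chr3:135290264-135397742, minus strand), the gene of p105 and p50, stood at 2523, 918 and 1660.4 normalized counts in controls and at 2019.9, 1897 and 2674 in TDP-43iΔEC. Control 1 was above 2 of the 3 TDP-43iΔEC libraries. The means were 1700.4 ± 803 and 2197 ± 417 (SD, n = 3 each), and the log2 fold change was 0.40 (SE 0.40, limma adjusted p = 0.760). Without control 2 it was 0.00.

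*Rela* (ENSMUSG00000024927.9, chr19:5687493-5698161, plus strand) encodes p65, the main activating subunit. It stood at 3515, 5410.3 and 3365 normalized counts in controls and at 6366, 6309 and 4131 in TDP-43iΔEC. Here control 2 was the high control, and without it the groups did not overlap. The means were 4097 ± 1140 and 5602 ± 1274 (SD, n = 3 each). The log2 fold change was 0.46 (SE 0.27, limma adjusted p = 0.603), with a 95% interval from -0.14 to 1.06, and 0.65 without control 2 (adjusted p = 0.539).

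Of the 6 feedback genes, *Tnfaip3* had the smallest p-value. It encodes A20, a ubiquitin-editing enzyme that shuts off signaling from tumor necrosis factor and toll-like receptors. *Tnfaip3* (ENSMUSG00000019850.12, chr10:18874201-18891405, minus strand) stood at 1200.4, 330.2 and 1066 normalized counts in controls and at 3953, 3024 and 1797 in TDP-43iΔEC. Every TDP-43iΔEC library exceeded every control, and control 2 was well below its group. The means were 865 ± 468 and 2925 ± 1082 (SD, n = 3 each), a ratio of 3.38, or 2.58 without control 2. The log2 fold change was 1.92 (SE 0.54), with a 95% interval from 0.69 to 3.15 and a limma adjusted p of 0.353. Over 16 alternatives the adjusted p ran from 0.0652 (DESeq2, log2 fold change 1.76) to 0.670 (limma without KO 1), and over the fits that left out 1 library the log2 fold change ran from 1.31 (without control 2) to 2.26. The exact permutation test of its 3 against 3 values gave p = 0.1, the smallest value that this design allows. The same holds for *Nfkb2*, *Relb* and *Nfkbie*.

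*Nfkbie* (ENSMUSG00000023947.9, chr17:45866585-45874661, plus strand) encodes IκBε, an inhibitor that retains dimers in the cytoplasm much like IκBα. Its normalized counts were 224, 0 and 168 in controls and 585, 371 and 302 in TDP-43iΔEC, again without overlap. The means were 131 ± 116 and 419 ± 147 (SD, n = 3 each), a ratio of 3.21, or 2.14 without control 2. The log2 fold change was 4.07 (SE 2.01, limma adjusted p = 0.563), 1.10 without control 2 and 1.63 by edgeR.

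*Nfkbia* (ENSMUSG00000021025.9, chr12:55535332-55539432, minus strand), the gene of the classical inhibitor IκBα, was by far the most abundant of the 10. It stood at 27872, 21142 and 22314 normalized counts in controls and at 32771, 23243 and 35650 in TDP-43iΔEC. KO 2 fell within the control range and the other two TDP-43iΔEC libraries lay above it. The means were 23776 ± 3595 and 30555 ± 6494 (SD, n = 3 each), a ratio of 1.29. The log2 fold change was 0.31 (SE 0.19, limma adjusted p = 0.614), with a 95% interval from -0.12 to 0.75. An antisense gene, *Gm36634*, overlaps 7.28% of its exon length and had at most 53 counts in any library.

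*Nfkbiz* (ENSMUSG00000035356.18, chr16:55631738-55659262, minus strand) encodes IκBζ, a nuclear IκB protein that can also assist transcription. It stood at 969, 862 and 768 normalized counts in controls and at 3456, 719 and 1599 in TDP-43iΔEC. The controls were close together, whereas the TDP-43iΔEC libraries spread on both sides of them. The log2 fold change was 0.99 (SE 0.60, limma adjusted p = 0.612), and 0.22 without KO 1, the highest library.

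*Tnip1* and *Birc3* showed no separation. *Tnip1* (ENSMUSG00000020400.18, chr11:54796320-54854661, minus strand), which encodes a ubiquitin-binding partner of A20, stood at 1136, 474 and 546 normalized counts in controls and at 763, 1662 and 712 in TDP-43iΔEC. Its log2 fold change was 0.47 (SE 0.53, limma adjusted p = 0.792), and 0.21 without control 2. Over 25.3% of its exon length it overlaps the antisense gene *Gpx3* (62 to 522 counts in controls, 224 to 832 in TDP-43iΔEC), so its counts are uncertain.

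*Birc3* (ENSMUSG00000032000.18, chr9:7845790-7873229, minus strand) encodes the ubiquitin ligase cIAP2, which acts at tumor necrosis factor receptors and restrains the alternative arm. It stood at 1967, 604 and 1212 normalized counts in controls and at 1097, 1513 and 921 in TDP-43iΔEC, with the highest and the lowest of the 6 libraries both controls. Its log2 fold change was -0.01 (SE 0.50, 95% interval -1.14 to 1.11, limma adjusted p = 0.996), and it turned positive under other scalings (0.02 with DESeq2 size factors, 0.18 by library size only and 0.20 scaled to EC markers). Without control 2 it was -0.48.

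**Figure D2:**
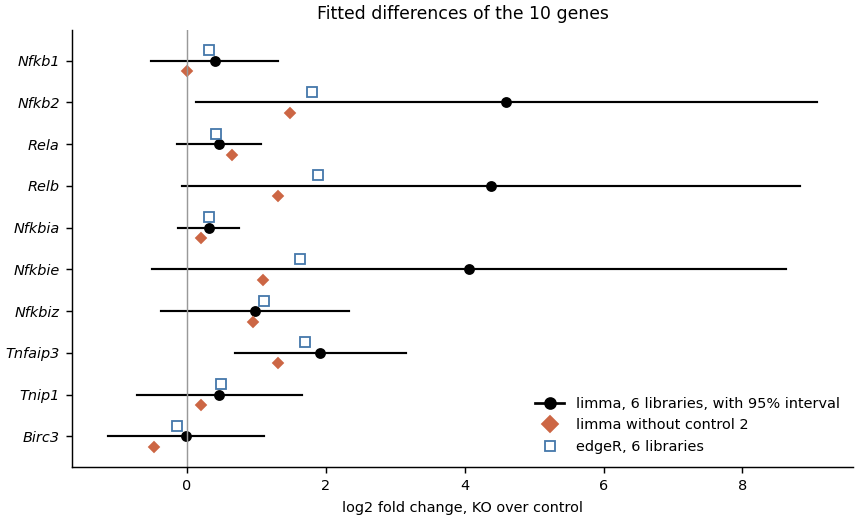
Log2 fold changes (TDP-43iΔEC over control) of the 10 genes: limma with its 95% interval over 6 libraries (circles with lines), limma without control 2 (diamonds) and edgeR (squares). The limma values of *Nfkb2*, *Relb* and *Nfkbie*, between 4.07 and 4.60, drop to between 1.10 and 1.49 without control 2, and *Tnfaip3* is at 1.92 and 1.31.

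Levels of different genes were compared as counts per kilobase of merged exons, scaled by the same sum over all genes in the library to the unit of TPM, a level that can be compared between genes. *Nfkbia* averaged 1254 over the 6 libraries and *Rela* 134, each above the gene after it in the order in all 6. *Nfkbiz* (22.6), *Tnfaip3* (18.3), *Nfkb1* (13.7) and *Birc3* (12.8) followed, and *Tnip1* (7.93), *Relb* (7.76), *Nfkb2* (6.33) and *Nfkbie* (6.15) were lowest. Message of IκBα was thus more abundant per length than that of any subunit in every library, and that of the alternative-arm subunits lay below that of p65. Neighbours below *Birc3* in the order were not separated: *Tnip1* exceeded *Relb* in 4 of 6 libraries, *Relb* exceeded *Nfkb2* in 4 and *Nfkb2* exceeded *Nfkbie* in 3. *Nfkbiz* exceeded *Tnfaip3* in 5 of 6, *Tnfaip3* exceeded *Nfkb1* in 2, and *Nfkb1* exceeded *Birc3* in 3. *Birc3* exceeded *Tnip1* in all 6. The place of *Nfkb1* depends on the length used, since with its longest transcript it averaged 28.7 and came next after *Rela*. With that length only 3 genes (*Nfkbia*, *Rela* and *Birc3*) kept their place, and the rest besides *Nfkb1* moved to the neighbouring place.

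**Figure D3:**
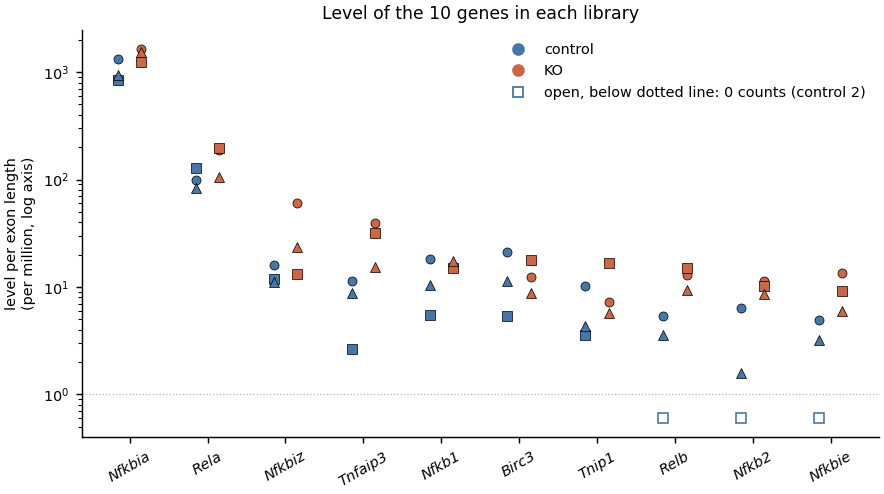
Level per exon length (in TPM, log axis) of the 10 genes in each of 6 libraries, ordered by mean; circle, square and triangle are libraries 1, 2 and 3 of each group, and open squares below the dotted line mark 0 counts. *Nfkbia* lies above *Rela* and *Rela* above the rest in every library. The genes from *Nfkbiz* to *Nfkbie* overlap in range with their neighbours, though *Birc3* lies above *Tnip1* within every library.

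Ratios within a library need no scaling between libraries. The log2 ratio of *Nfkbia* to *Rela*, of the inhibitor to the subunit it holds, was 2.99, 1.97 and 2.73 in controls and 2.36, 1.88 and 3.11 in TDP-43iΔEC. The groups overlapped, with a mean difference of -0.11 (exact permutation p = 0.9), and the sign of the difference changed when control 1 or KO 2 was left out. The log2 ratio of *Nfkb2* to *Nfkb1*, of the alternative to the canonical precursor, was -2.22, -11.0 and -3.43 in controls and -1.14, -1.28 and -1.70 in TDP-43iΔEC (0.5 added to each count). The groups did not overlap. The difference of means was 4.17, and 1.44 without control 2, with an exact permutation p of 0.1 in both cases. As plain ratios, *Nfkb2* counts were 0.215, 0 and 0.0929 of those of *Nfkb1* in controls and 0.452, 0.410 and 0.307 in TDP-43iΔEC.

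The rest of the pathway was read from lists of 89 further genes, of which 75 were tested. These lists, too, were chosen with earlier results of these data known. Of genes that NF-κB is known to switch on in ECs, among them adhesion molecules, chemokines and survival genes, 9 of 21 were apart between the groups. Over all tested genes, 7.93% were apart with TDP-43iΔEC higher. *Icam1* was the only pathway gene past the limma threshold. Among the other family genes, 4 of 4 were tested, 0 passed the test in either direction, and 2 did not overlap between the groups. *Rel*, the gene of subunit c-Rel, stood at 346, 40.1 and 373 normalized counts in controls and at 1026, 427 and 1114 in TDP-43iΔEC (log2 fold change 2.14, limma adjusted p = 0.558, and 1.10 without control 2). *Nfkbid*, which encodes a nuclear IκB protein, stood at 210.5, 0 and 78.7 in controls and at 987, 268 and 275 in TDP-43iΔEC (4.69, adjusted p = 0.549 by limma, and 1.87 without control 2). Both separated by group, as *Nfkb2* and *Relb* did, and like them had their lowest value in control 2. *Nfkbib* (IκBβ) and *Bcl3*, a nuclear IκB protein that binds p50 and p52, overlapped, with 0 counts in control 2. Their log2 fold changes were 3.68 and 2.60, and 0.22 and 0.21 without control 2.

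**Figure D4:**
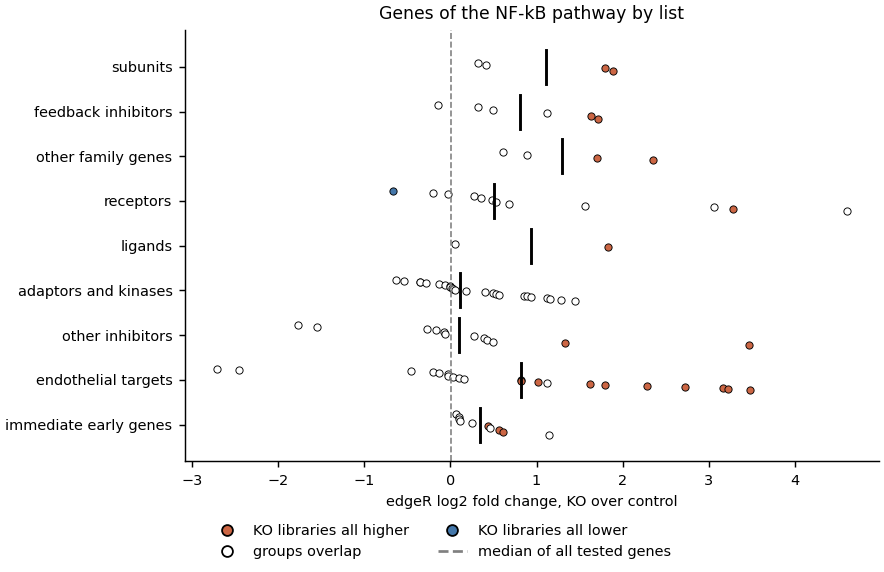
EdgeR log2 fold change (TDP-43iΔEC over control) of each tested gene of 9 gene lists; filled points are genes whose groups do not overlap (red higher, blue lower in TDP-43iΔEC), black bars are list medians and the dashed line is the median of all tested genes (0.00). Filled red points lie in every list but adaptors and kinases, and 9 of the 21 tested endothelial targets are filled red.

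Of 12 receptors, 12 were tested and 0 passed the test. The groups were apart for 1 higher in TDP-43iΔEC (*Tlr4*), against 7.93% of all tested genes. They were also apart for 1 lower, against 930 of 13107 tested genes. The lower was *Il1r1*, an interleukin-1 receptor gene, named here after its values were seen. *Tlr4*, the receptor for bacterial lipopolysaccharide, stood at 44.9, 0 and 230.5 normalized counts in controls and at 1221, 458 and 1107 in TDP-43iΔEC (log2 fold change 5.68 by limma, 3.04 without control 2 and 3.28 by edgeR, limma adjusted p = 0.487). *Tlr2*, a receptor for bacterial lipoproteins, stood at 0, 0 and 446 in controls and at 609, 287 and 478 in TDP-43iΔEC, and so overlapped. Of 8 ligands, 2 were tested. *Tnf*, the gene of tumor necrosis factor and the best known activator of the canonical arm, stood at 204, 299.98 and 348 normalized counts in controls and at 968, 1273 and 863 in TDP-43iΔEC. All TDP-43iΔEC libraries exceeded all controls (1.84, SE 0.57), and the adjusted p was 0.388 by limma and 0.000147 by DESeq2. *Tnfsf12*, the gene of TWEAK, an activator of the alternative arm, stayed at or below 133.4 normalized counts in every library.

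Of 26 adaptor and kinase genes 24 were tested, 0 passed, and the groups were apart for 0 of them, with a median log2 fold change of 0.30 by limma and 0.12 by edgeR. *Tbk1*, a kinase of the IKK family, was at 1670, 1228 and 915 normalized counts in controls and at 3251, 2402 and 1443 in TDP-43iΔEC. *Chuk*, which encodes the IKKα kinase of the alternative arm, was at 462, 134 and 942 in controls and at 1403, 725 and 1436 in TDP-43iΔEC, where KO 2 was below control 3. *Traf2* and *Rnf31*, both ubiquitin ligase genes of the tumor necrosis factor receptor complex, also overlapped.

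Of 14 other inhibitors 12 were tested, 0 passed, and 2 were apart, both higher (7.93% of all tested genes). *Traf1*, an adaptor gene that NF-κB is known to induce, stood at 97.3, 0 and 0 normalized counts in controls and at 302, 117 and 697 in TDP-43iΔEC (log2 fold change 6.71, limma adjusted p = 0.454, and 5.42 without control 2). *Tnip2*, whose product binds A20 like that of *Tnip1*, stood at 805, 143 and 751 in controls and at 1366, 978 and 2086 in TDP-43iΔEC (log2 fold change 1.57, SE 0.67, limma adjusted p = 0.522, and 0.76 without control 2). *Tax1bp1* and *Usp4*, an A20 adaptor gene and a deubiquitinase gene, overlapped.

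Of 25 endothelial target genes 21 were tested, and 1 passed the test upward and 0 downward. The groups were apart for 9, all of them higher in TDP-43iΔEC, against 7.93% of all tested genes. *Icam1*, a leukocyte adhesion molecule, stood at 3275, 4358 and 2714 normalized counts in controls and at 11157, 10503 and 14953 in TDP-43iΔEC. It rose 3.54-fold in the means, with a log2 fold change of 1.78 (SE 0.24, limma adjusted p = 0.0342). With edgeR the adjusted p was 0.109, and it was above 0.05 whenever any of the 6 libraries was left out. *Vcam1*, another adhesion molecule, stood at 225, 325 and 597 in controls and at 2448, 2062 and 1243 in TDP-43iΔEC (2.42, SE 0.58, limma adjusted p = 0.271, DESeq2 adjusted p = 0.00056). *Cxcl1*, a neutrophil chemokine, stood at 199, 117.5 and 379 in controls and at 1808, 996 and 1956 in TDP-43iΔEC (2.83, SE 0.79, limma adjusted p = 0.341, DESeq2 adjusted p = 0.000161). These 3 genes were the clearest of the list and did not depend on a 0 in control 2. *Sele*, the gene of E-selectin, stood at 141, 0 and 13.0 in controls and at 183, 596 and 711 in TDP-43iΔEC (log2 fold change 5.13, limma adjusted p = 0.522, and 3.01 without control 2). *Selp*, that of P-selectin, was not tested and stayed at or below 20.8 normalized counts. *Ier3*, a survival gene of the pathway, was higher in all TDP-43iΔEC libraries (0.94, SE 0.30, limma adjusted p = 0.396, DESeq2 adjusted p = 0.042).

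**Figure D5:**
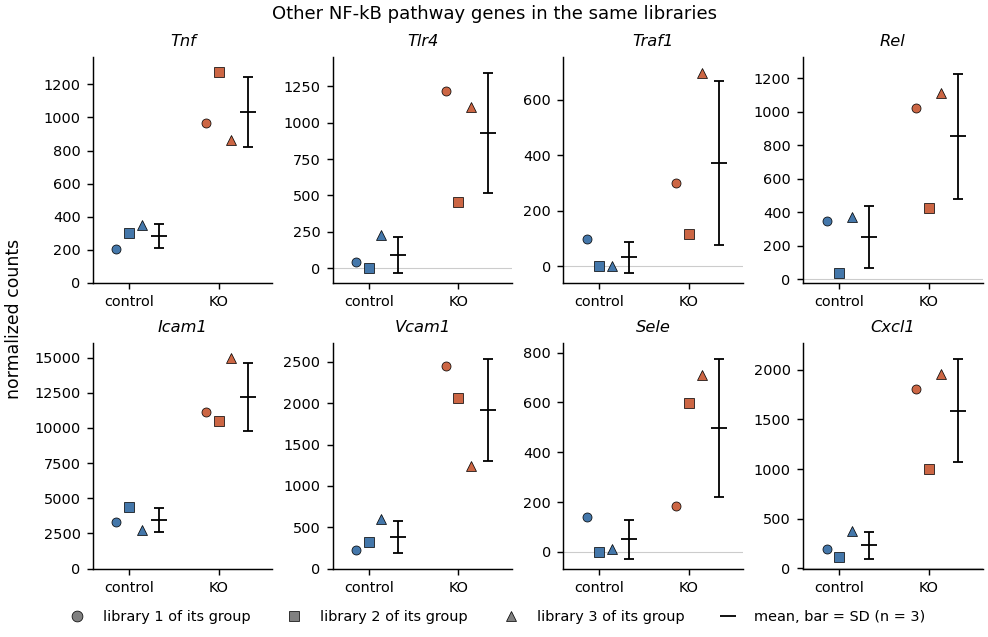
Normalized counts (vertical axes from 0) of *Tnf*, *Tlr4*, *Traf1*, *Rel*, *Icam1*, *Vcam1*, *Sele* and *Cxcl1* in each library, with the mean and SD of 3 libraries per group. The 8 genes shown are all from among those whose groups did not overlap. Genes of the same pathway that overlapped, such as *Tlr2*, *Chuk*, *Traf2* and *Nfkbib*, are not drawn. All KO points thus lie above all control points in the 8 panels, and control 2 (square) is at 0 for *Tlr4*, *Traf1* and *Sele*.

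Values of immediate early genes and of markers of other cell types in the same libraries were as follows, whether or not their groups overlapped. Immediate early genes are known to be induced while tissue is digested warm, as it was here with collagenase. They summed to between 2259 and 2950 CPM in controls and between 3184 and 3824 CPM in TDP-43iΔEC, without overlap on this scale. CPM is scaled by library size only, which moved the median log2 fold change of all tested genes to 0.18. By normalized counts the groups overlapped for *Fos* and *Dusp1*, those of the list with the highest counts. Of the 10 genes, 0 passed the test, and 3 (*Jun*, *Atf3* and *Zfp36*) were apart, all higher (7.93% of all tested genes). Their part in the values above was not tested. Markers of microglia and macrophages, cells known to express *Tnf* and toll-like receptors, summed to between 0 and 8.12 CPM in controls and between 6.29 and 12.8 CPM in TDP-43iΔEC, with 2 of 13 (*Itgam* and *Adgre1*) at 0 in all libraries. The antibodies listed by the study include CD45 and TER-119, which mark leukocytes and erythroid cells. The methods text does not state which cells were gated out, and how far the sort removed these cells was not tested. Neutrophil markers reached at most 0.0227 CPM with 3 of 4 at 0 everywhere, and lymphocyte markers reached 0.386 CPM in controls and 3.12 CPM in TDP-43iΔEC. Oligodendrocyte markers summed to between 288 and 545 CPM in controls and between 14.9 and 497 CPM in TDP-43iΔEC, and so overlapped. Of these 4 genes, *Olig1* alone was lower in every TDP-43iΔEC library. The sums of neuronal markers (0.567 to 1.95 against 3.11 to 9.40 CPM) and erythroid markers (2186 to 2898 against 6304 to 9698 CPM) were lower in TDP-43iΔEC without overlap. The 4 neuronal genes did not move together, since *Snap25* was lower and *Rbfox3* higher in every TDP-43iΔEC library. All 4 erythroid genes fell in the limma test. The part of these cells in the values above was not tested.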

How the data were processed

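RNA-Seq was measured in 6 libraries, grouped by the genotype in the labels. The authors sorted ECs, prepared SMARTseq2 libraries from low RNA input, mapped them with STAR 2.7.8a on GRCm39, and quantified GENCODE M30 genes by RSEM 1.3.0 (versions as in the submitters' processing notes). The deposited estimated counts are whole numbers, not scaled or filtered. The kit does not mark strand, so reads of a gene and of its antisense partner cannot be told apart where they overlap.

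Genes were tested in R 4.3.3 with limma 3.58.1 (voom after TMM scaling and the default filterByExpr of edgeR 4.0.16, as the study's methods name limma voom), with no covariate, two-sided, and with Benjamini-Hochberg adjustment over 13107 genes at a threshold of 0.05. Normalized counts are counts divided by size factors of DESeq2 1.42.0. Exact permutation tests were two-sided over 3 against 3 libraries and cannot go below 0.1. Count and log2 scales are named with each value. P-values of the fits weigh the group difference against the spread between the libraries of a group. That spread mixes differences between mice with those of preparation. In limma it is moderated over all tested genes. The fits were tested on simulated data, in which, with no gene changed, limma and edgeR made no calls and DESeq2 made some. A floor of 3 counts was 0.0635 to 0.117 CPM. Positions, exons and overlaps came from GENCODE M39, which matched 98.7% of gene IDs.

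The members and gene lists were chosen with earlier results of these data known. Besides the 10 members, *Tardbp* and the other family genes, the genes named were those called and up to 4 with the smallest unadjusted p in each list, *Icam1*, *Vcam1*, *Sele*, *Selp* and *Tnf*, and the 5 genes nearest to *Nfkbia*. Alternatives were edgeR's and DESeq2's tests, other scalings (DESeq2 size factors, library size, 8 EC markers), other filters, rRNA, hemoglobin and mitochondrial genes left out, quality weights, the replicate block, each library left out, another pseudocount (5 in place of 0.5) for ratios and the longest transcript as gene length. Counts of non-overlapping genes without control 2 and without KO 1 were added after seeing the data.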

Additional observations from a re-analysis of the deposited data

How the results depend on the processing

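Under 16 alternatives, 157 fitted values of the 10 genes were computed. None passed an adjusted p of 0.05, 148 kept their direction, and the 9 that turned were all of *Birc3* (-0.01), at 0.015 with DESeq2 size factors, 0.18 by library size only, 0.20 scaled to EC markers, 0.012 with at least 10 counts in every library, 0.018 without ribosomal RNA, hemoglobin and mitochondrial genes, and 0.04 to 0.39 without control 1, control 3, KO 1 or KO 3, within a range of -0.48 (without control 2) to 0.39 over the 6 fits with 1 library left out. Under the minimum of 10 counts, *Nfkb2*, *Relb* and *Nfkbie* could not be tested. Scaling by library size and to EC markers moved the median log2 fold change of all genes from -0.02 to 0.18 and 0.22, and leaving out control 2 moved it to -0.17. The *Nfkbia* to *Rela* difference ran from -0.44 to 0.18 with 1 library left out (0.10 without control 1, 0.18 without KO 2), and that of *Nfkb2* to *Nfkb1* from 1.44 to 5.84.

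The 18 genes called became 0 by edgeR (848 at an unadjusted p of 0.05), 466 by DESeq2 (which was given all 21324 detected genes and its own filter, so that test and filter both differ), 10 by library size, 1 scaled to EC markers, 76 without a filter, 39 with at least 10 counts in every library, and 0 to 13 with 1 library left out (3 without control 1, 10 without control 2, 0 without KO 1, where 960 genes had an unadjusted p under 0.05, 3 without KO 2 and 2 without KO 3). The 1 pathway gene called by limma, *Icam1*, became 0 by edgeR, scaled to EC markers (adjusted p = 0.0969) and whenever 1 library was left out (0 to 0 genes, adjusted p 0.0752 to 0.193). DESeq2, with 85 pathway genes in place of 75, called 7, *Icam1*, *Tnf*, *Cxcl1*, *Vcam1*, *Ier3* and, named after their values were seen, *Cxcl2* and *Il6*. *Il6* had counts only in KO 3 and was not tested by limma. *Il1rap* turned from -3.61 to 0.014 by DESeq2 and ran from -5.31 to 0.32 (without KO 1) with 1 library left out, and *Tnfsf12* from 0.18 to -1.89 with quality weights and ran from -2.26 (without control 2) to 1.58, with -1.28 without KO 3. The causes were not tested.

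The labels number the libraries 1 to 3 in each group, but same-numbered libraries did not deviate together (r = -0.06, -0.11 and -0.02 over 13107 genes). No same-numbered pair was the best match of both its libraries. These values gave no sign of a pairing by number. They cannot exclude a pairing by litter or batch, which the labels do not give. With the replicate number as a block, limma called 22 genes, 0 of the 10 and 0 of the pathway lists (*Icam1* adjusted p = 0.0645). The exact test of paired differences, whose smallest p is 0.25 with 3 pairs, gave 0.75 for *Nfkbia* to *Rela* and 0.25 for *Nfkb2* to *Nfkb1*.

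The SEs of *Nfkb2*, *Relb* and *Nfkbie*, 1.96 to 2.01 over all libraries, were 0.59 to 0.75 without control 2. Copies made by PCR were not marked by molecular identifiers, so the limits given for a count of 0 cover counting error only. The 95% intervals of log2 fold changes come from the spread between libraries.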

Other observations

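The 5 tested genes outside the 10 whose log2 normalized counts, centered on their mean over the 6 libraries, lay nearest to those of *Nfkbia* were *Eif3a* (Euclidean distance 0.22), *Mettl2* (0.24), *Gm9830* (0.25), *Phf20l1* (0.27) and *Fbxo8* (0.29). *Eif3a*, a translation initiation factor gene, averaged 5803 ± 575 normalized counts in controls and 6723 ± 1230 in TDP-43iΔEC (SD, n = 3 each), and the groups overlapped, as they did for the other 4. Among the 10 genes, the highest TDP-43iΔEC value was in KO 1 for 5, in KO 2 for 3 and in KO 3 for 2, and the highest control value was in control 1 for 9.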
